A study of Homo sapiens with 6 samples.

Results

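Caveolins and cavins are the proteins that build caveolae, the small flask-shaped pits of the plasma membrane. The 8 genes followed here were the caveolins CAV1, CAV2 and CAV3, the cavins CAVIN1, CAVIN2 and CAVIN3, and 2 genes of membrane-shaping proteins, EHD2 and PACSIN2. They were looked up by symbol, and a gene was read from 1 probe set annotated to that gene alone, the one with the highest mean signal over all 6 arrays, which gave 18417 genes in all. The family itself was chosen by gene function, with the lower CAV1 signal of these same arrays already known, so the CAV1 values below describe the arrays and are no independent evidence. That rule gave a value to 7 of the 8 genes. The only probe set of CAV2 is annotated to 2 genes, CAV2 and the long non-coding RNA gene LOC105375463, so no value is assigned to CAV2. Each of the 7 other genes had 1 single-gene probe set, so the choice by mean signal had no alternative to pass over.

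The arrays held RNA of A549, a human lung adenocarcinoma line with features of alveolar type II cells. Control stable cells (C, 3 arrays) were compared with stable cells labelled H2AX knockdown (P1, 3 arrays), and both had been starved of serum overnight and then exposed to VP-16 for 48 h. VP-16 is etoposide, which traps topoisomerase II on broken DNA, and H2AX is the histone variant that is phosphorylated around such breaks. The means of knockdown, the vector of the control cells and the number of stable clones behind each group are not given in the sources used here, and no untreated cells were analysed here. All members were therefore seen under the drug in both groups.

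In a caveola, caveolins insert into the inner leaflet of the membrane and bind cholesterol, and cavins form a coat on them from the cytosol. CAV1 and CAVIN1 are needed to form caveolae in most tissues, while CAV3 takes the place of CAV1 in muscle. In the lung, caveolae are abundant in endothelium and in flat alveolar type I cells, and sparse in type II cells.

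No caveolin or cavin passed the test over all genes (limma with Benjamini-Hochberg adjustment, adjusted p under 0.05). Of all genes 0.0271% were called lower and 0.00543% higher by that rule. The CAV1 signal was lower in each knockdown-labelled array than in any control array, by 0.71 in the means on the log2 scale, and 9.82% of all genes were likewise lower with no overlap. The other 6 measured members overlapped between the groups, with differences of −0.27 to 0.28.

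Promoter sequences of CAV1 and CAV2 are shown because these genes lie side by side and carry the lowest signals relative to control in the family, the second only as far as its shared probe set can be read. The windows run from 250 bases before to 50 after a transcription start and were taken from RefSeq (GRCh38.p14), all on the plus strand of chromosome 7. Capitals mark GC boxes, the letters GGGCGG or their reverse complement, bound by SP family factors. The upstream window of CAV1 is chr7:116524759-116525058, the downstream one is chr7:116526112-116526411, and the upstream one of CAV2 is chr7:116499488-116499787.
CAV1 upstream window: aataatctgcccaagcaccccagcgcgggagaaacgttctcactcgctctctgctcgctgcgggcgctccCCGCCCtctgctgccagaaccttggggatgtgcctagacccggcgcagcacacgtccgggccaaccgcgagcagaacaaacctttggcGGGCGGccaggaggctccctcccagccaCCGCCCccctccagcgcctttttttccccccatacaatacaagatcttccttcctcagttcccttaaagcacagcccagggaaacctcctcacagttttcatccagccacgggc
CAV1 downstream window: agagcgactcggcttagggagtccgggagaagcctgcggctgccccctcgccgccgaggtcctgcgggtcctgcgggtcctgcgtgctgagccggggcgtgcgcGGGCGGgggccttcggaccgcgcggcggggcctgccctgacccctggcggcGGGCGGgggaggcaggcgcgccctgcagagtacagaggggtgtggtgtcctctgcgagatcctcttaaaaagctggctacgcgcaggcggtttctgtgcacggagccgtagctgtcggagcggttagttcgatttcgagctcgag
CAV2 upstream window: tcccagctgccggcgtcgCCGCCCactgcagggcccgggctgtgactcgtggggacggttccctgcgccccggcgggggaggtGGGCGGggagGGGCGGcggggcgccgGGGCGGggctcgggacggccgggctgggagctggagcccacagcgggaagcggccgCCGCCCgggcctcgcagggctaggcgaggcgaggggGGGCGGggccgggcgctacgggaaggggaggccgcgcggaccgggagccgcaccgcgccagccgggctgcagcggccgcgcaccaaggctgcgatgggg

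The upstream CAV1 window held 3 GC boxes, the downstream one 2 and the CAV2 window 6, where 45% of 35116 promoter windows of the same 300 bases held at least 1. The GC content was 62.3%, 71% and 82.7%, against a median of 58.7% over all windows. The share of 45% was not taken among windows of like GC content. GC boxes were not particular to these genes. They also occurred in the window of EHD2 and in a window of PACSIN2, whose groups overlapped, but not in those of CAV3 and CAVIN2. Both strands were also searched for TEAD (GGAATG), AP-1 (TGANTCA) and a sterol response element (TCACNCCAC). None of these letters occurred in the 3 CAV1 windows or the 2 CAV2 windows. They occur in 14%, 7.71% and 1.13% of all windows, so their absence from a single window is the usual case. A TEAD match was present in the only window of CAVIN2 (chr2:191847039-191847338, minus strand, printed in the direction of the gene), 16 bases before the start, and it is printed with that match in capitals because targets of YAP and TEAD are described further on.
CAVIN2 window: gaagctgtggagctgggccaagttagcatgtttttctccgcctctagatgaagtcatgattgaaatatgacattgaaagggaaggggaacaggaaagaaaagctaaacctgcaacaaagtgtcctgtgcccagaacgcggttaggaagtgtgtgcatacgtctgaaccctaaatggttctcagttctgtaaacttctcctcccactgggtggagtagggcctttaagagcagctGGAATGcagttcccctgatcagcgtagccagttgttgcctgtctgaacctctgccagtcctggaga

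A TEAD match was also present in 4 of the 6 windows of PACSIN2, of which 3 overlap one another and share 1 match. The windows of CAV3 and EHD2 had none, and CAVIN1 and CAVIN3 were not matched in the sequence table. A match is a run of letters and not a measured binding site.

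Signals depended on brightness in these arrays, and this touches the members, most of all the 4 brightest. When all genes were split evenly into 5 bins of brightness, the log2 difference, knockdown-labelled minus control, had a median of 0.15 in the dimmest bin and −0.25 in the brightest. CAV1, CAVIN1, EHD2 and PACSIN2 lie in the brightest bin, CAVIN2 and CAVIN3 in the middle bin (median −0.01) and CAV3 in the second dimmest (median 0.07). The shift was largest in knockdown-labelled replicate 1, where the median of the brightest bin was −0.45 against the control mean, and −0.15 and −0.13 in replicates 2 and 3. The targeted gene H2AX read 5.11, 5.27 and 5.26 in the controls and 5.28, 5.17 and 5.49 in the knockdown-labelled arrays, so its signal does not show the labelled loss, and each direction below is that of a label. In bulk RNA, fewer cells with a transcript and less transcript per cell cannot be told apart.

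CAV1 (probe set 8135594, Entrez gene 857) encodes caveolin-1, the main structural protein of caveolae outside muscle. Its log2 signal was 7.95, 7.66 and 7.50 in control replicates 1, 2 and 3, and 6.83, 7.00 and 7.17 in knockdown-labelled replicates 1, 2 and 3. The lowest control array lay above the highest knockdown-labelled array, so the groups did not overlap. The means were 7.70 ± 0.22 (SD, n = 3) and 7.00 ± 0.17 (SD, n = 3), a difference of −0.71 with a 95% interval of −1.08 to −0.33 (limma SE 0.17, adjusted p = 0.227, unadjusted p = 0.0014). On the linear scale the knockdown-labelled mean was 61.3% of the control mean. CAV1 was the only one of the 7 measured members with an unadjusted p under 0.05 and the only one whose groups were separate. Of all genes, 8.38% were lower and 3.78% higher at that unadjusted level, so 1 of 7 is near the background both by that measure and by overlap.

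Set against genes of its own brightness, CAV1 was also low. The family was chosen with the low CAV1 signal known, so this rank and the fits below only describe the arrays. Its difference lay 0.45 below the median of the brightest bin, and 2.36% of that bin had a difference as low or lower. Against the control mean the CAV1 value was −0.88, −0.71 and −0.53 in knockdown-labelled replicates 1, 2 and 3, below the bin's median in each of these arrays. After quantile normalization the CAV1 difference was −0.47 (95% interval −0.80 to −0.14, limma adjusted p = 0.486) and after cyclic loess it was −0.43 (−0.75 to −0.11, limma adjusted p = 0.495), both of which even out the shift with brightness. Without knockdown-labelled replicate 1 it was −0.62 (limma adjusted p = 0.429).

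Probe set 8135587, annotated to both CAV2 and LOC105375463, was also lower in each knockdown-labelled array than in any control. Of all genes 9.82% were likewise lower with no overlap, and that share was not taken over all probe sets. CAV2 encodes caveolin-2, which needs caveolin-1 to leave the Golgi and reach the plasma membrane. This probe set was looked at after the values were seen, and it does not count among the 7 members. Its log2 signal was 7.09, 6.85 and 6.58 in control replicates 1, 2 and 3, and 5.89, 5.77 and 6.27 in knockdown-labelled replicates 1, 2 and 3. Knockdown-labelled replicate 3 was the highest of its group, as it was for CAV1. The means were 6.84 ± 0.25 and 5.98 ± 0.26 (SD, n = 3 each), a difference of −0.87 with a 95% interval of −1.32 to −0.41 (limma over all 33297 probe sets, adjusted p = 0.426). It was −0.64 after quantile normalization and −0.60 after cyclic loess. Which of the 2 genes gave the signal cannot be told apart. The probe set followed CAV1 over the 6 arrays with a Pearson r of 0.97, given as a description. Both share the group difference, and 7.55% of the other genes at or above the median signal had an r with CAV1 above 0.9.

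CAV3 (probe set 8077503) encodes the caveolin of skeletal and heart muscle, and its probe set was dim. It read 2.53, 3.06 and 2.82 in the controls and 3.07, 3.29 and 2.88 in the knockdown-labelled arrays. The groups overlapped, since control replicate 2 was above knockdown-labelled replicate 3. The difference was 0.28 (95% interval −0.12 to 0.68, limma adjusted p = 0.544), or 0.17 after quantile normalization. Omitting control replicate 1 gave 0.14 for CAV3, and omitting knockdown-labelled replicate 2 gave 0.17.

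**Figure D1:**
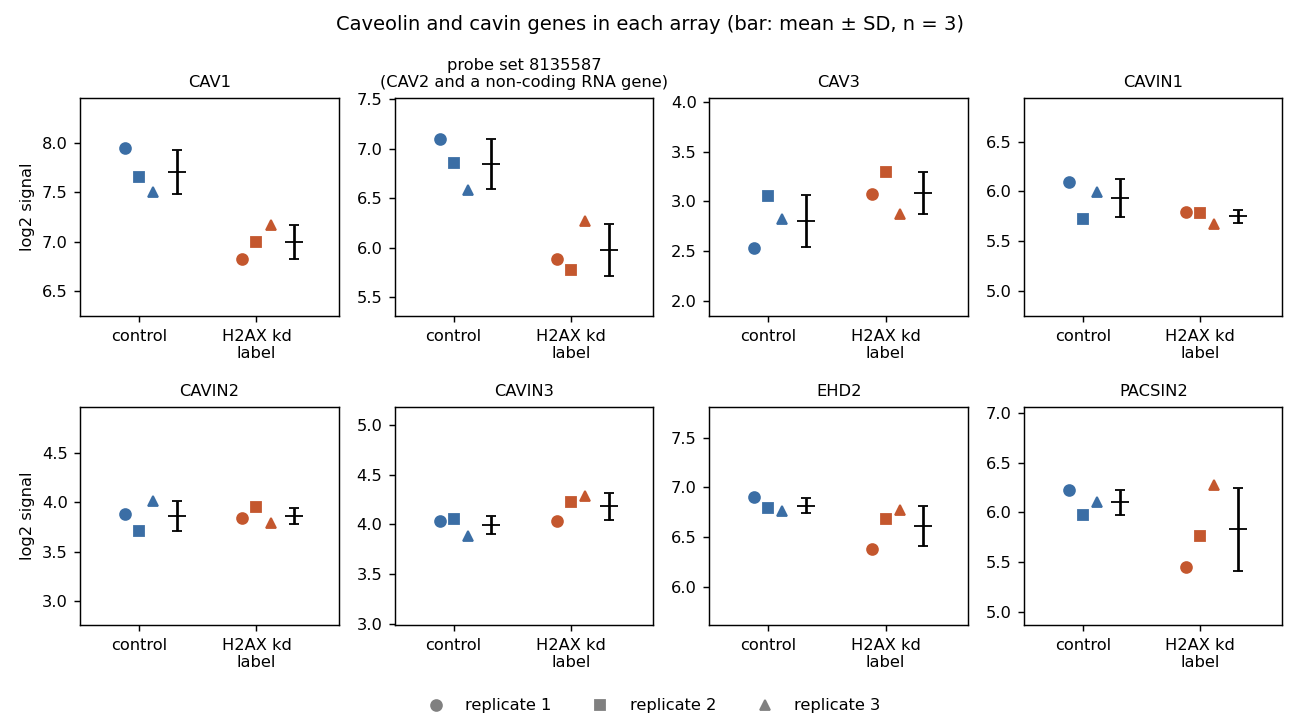
Log2 signal (vertical axes, each spanning the same range) of the 7 measured genes and of probe set 8135587 in 3 control and 3 knockdown-labelled arrays, with the mean ± SD beside each group. The groups are separate for CAV1 and for probe set 8135587 and overlap in the other panels.

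CAVIN1 (probe set 8015635) encodes cavin-1, the coat protein without which caveolae do not form. Its log2 signal was 6.10, 5.72 and 5.99 in the controls and 5.79, 5.78 and 5.67 in the knockdown-labelled arrays. Control replicate 2 lay among the knockdown-labelled arrays. The difference of −0.19 (95% interval −0.54 to 0.17, limma adjusted p = 0.657) was above the median of its brightness bin, and it was 0.03 after quantile normalization and 0.05 after cyclic loess. It was −0.11 without control replicate 1 and −0.29 without control replicate 2. The sign of the CAVIN1 difference thus depended on how the arrays were scaled.

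CAVIN2 (probe set 8057797), whose product binds phosphatidylserine and helps to curve the membrane, read 3.88, 3.71 and 4.01 in the controls and 3.84, 3.95 and 3.79 in the knockdown-labelled arrays. The arrays of both groups were interleaved, and the difference was −0.01 (95% interval −0.35 to 0.34, limma adjusted p = 0.99). CAVIN3 (probe set 7946142), whose product binds protein kinase C delta, read 4.03, 4.05 and 3.89 in the controls and 4.03, 4.22 and 4.29 in the knockdown-labelled arrays. Knockdown-labelled replicates 2 and 3 were above all controls and replicate 1 was not. The CAVIN3 difference was 0.19 (95% interval −0.15 to 0.53, limma adjusted p = 0.641), and 0.21 after quantile normalization and after cyclic loess alike. The interval of CAVIN2 takes in differences up to 0.34 and that of CAVIN3 up to 0.53, so these values do not show that the cavins were equal between the groups.

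EHD2 (probe set 8029950) encodes an ATPase that sits at the neck of caveolae and holds them at the surface. Its log2 signal was 6.91, 6.79 and 6.76 in the controls and 6.38, 6.68 and 6.77 in the knockdown-labelled arrays. Only knockdown-labelled replicate 3 reached into the control range. The difference of −0.21 (95% interval −0.56 to 0.15, limma adjusted p = 0.62) became −0.09 without knockdown-labelled replicate 1, and 0.03 after quantile normalization and 0.07 after cyclic loess.

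PACSIN2 (probe set 8076533), an F-BAR protein that bends membrane at caveolae, read 6.22, 5.97 and 6.10 in the controls and 5.45, 5.77 and 6.28 in the knockdown-labelled arrays. Its knockdown-labelled arrays had the widest spread of any member (SD 0.42, n = 3), and the lowest and the highest PACSIN2 value both came from that group. The difference of −0.27 (95% interval −0.71 to 0.17, limma adjusted p = 0.602) was −0.08 without knockdown-labelled replicate 1, −0.49 without replicate 3 of that group and −0.07 after quantile normalization.

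**Figure D2:**
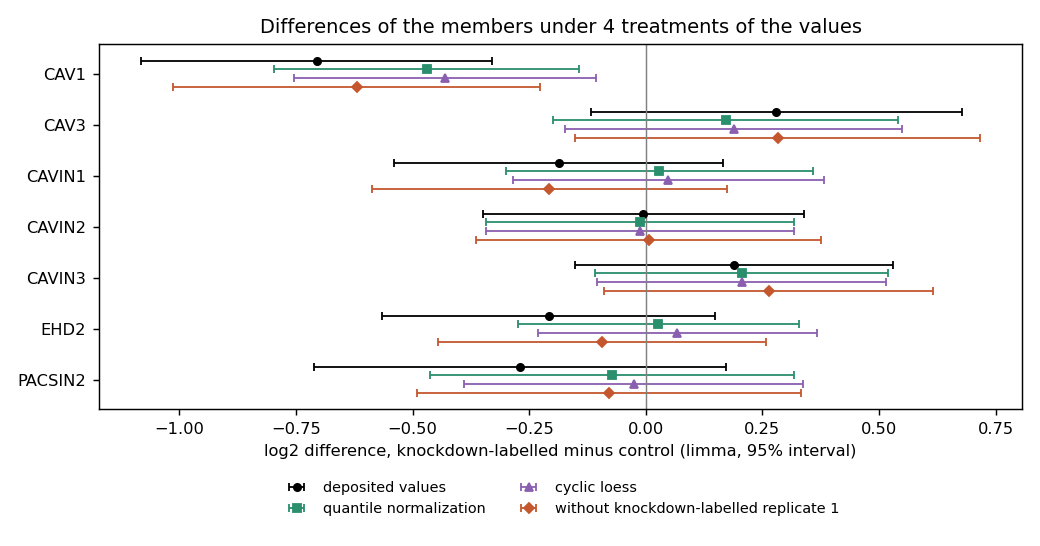
Log2 difference, knockdown-labelled minus control, with limma's 95% interval for the 7 measured genes, from the deposited values, after quantile normalization, after cyclic loess and without knockdown-labelled replicate 1. CAV1 is below 0 in all 4 with intervals that stop short of 0, while CAVIN1 and EHD2 are on the other side of 0 after either normalization.

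Over the 7 measured members, 5 differences were below 0 and 2 above, with a median of −0.19, where 51.5% of all genes were below 0 and their median was −0.01. Omitting control replicate 1 brought the members' median to −0.11, and omitting knockdown-labelled replicate 1 to −0.08. After quantile normalization the members' median was 0.03 and after cyclic loess 0.05, where that of all genes was −0.03 and −0.02. Across the 6 arrays, which share the group difference and the shift with brightness, the signal of EHD2 had a Pearson r of 0.84 with CAV1, PACSIN2 of 0.69 and CAVIN1 of 0.61. CAVIN2 had an r of −0.09, CAVIN3 of −0.42 and CAV3 of −0.74, so the 3 dimmer genes did not follow CAV1.

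**Figure D3:**
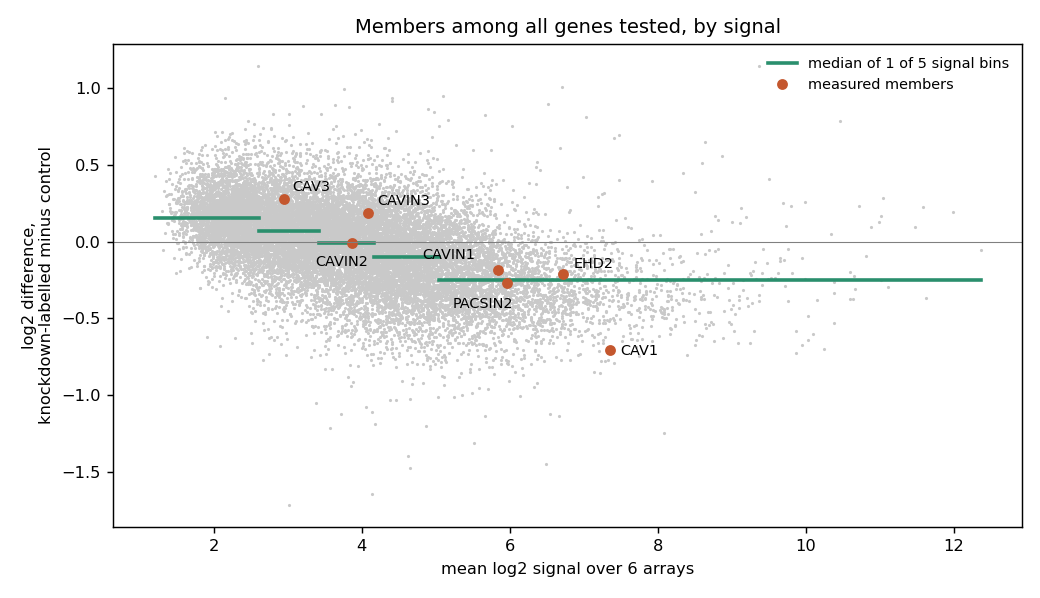
Each grey point is 1 of 18417 genes, with its mean log2 signal over 6 arrays (horizontal) and its log2 difference, knockdown-labelled minus control (vertical), and lines mark the medians of 5 signal bins. CAVIN1, EHD2 and PACSIN2 lie near the line of the brightest bin at −0.25, and CAV1 lies below it at −0.71.

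The 5 genes whose signals were most like CAV1 over the 6 arrays, among 9208 other genes at or above the median signal, were VAMP3, SNX5, TMEM263, SEC22C and NDUFAF3, with a Pearson r of 0.99 or more. VAMP3, a SNARE of recycling endosomes, had an r of 0.998 and a difference of −0.54. SNX5, a sorting nexin of endosomes, had a difference of −0.54, TMEM263 of −0.67, SEC22C of −0.69 and NDUFAF3, an assembly factor of respiratory complex I, of −0.47. All 5 were lower in every knockdown-labelled array than in any control, which their choice by likeness to CAV1 over the same arrays largely fixed, so their separation is no result. None passed the test (limma adjusted p 0.224 to 0.316). With 6 arrays such likeness is common: 695 genes, or 7.55% of those compared, had an r above 0.9.

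CAV2, which has no value of its own, was left aside among the neighbours of CAV1 on chromosome 7. Of the 10 measured neighbours, none was lower in every knockdown-labelled array than in any control, where 9.82% of all genes were. A count of 0 in 10 is near that share. In RefSeq order the protein-coding genes run MDFIC, TFEC and TES, then CAV2 and CAV1, then MET, CAPZA2, ST7, WNT2, ASZ1, CFTR and CTTNBP2. None of the 10 passed the test in limma, and 1 was lower and 0 were higher by unadjusted p under 0.05 (8.38% and 3.78% of all genes). Of the 10, 4 were below 0 and 6 above, and their median of 0.08 became −0.04 with quantile normalization and 0.02 without control replicate 2. A filter at the median signal kept only the 4 neighbours below 0, and the median was then −0.34. CAPZA2, a subunit of the actin capping protein, had the lowest value, −0.49 (limma adjusted p = 0.369). It read 5.89, 5.85 and 5.45 in the controls and 5.13, 4.95 and 5.62 in the knockdown-labelled arrays, which overlapped. TES, a focal adhesion protein, was at −0.45 (limma adjusted p = 0.468). Its knockdown-labelled replicate 1 read 5.59, while replicates 2 and 3 read 6.52 and 6.58, within the control range of 6.47 to 6.90, and without that array the TES difference was −0.13. The receptor tyrosine kinase gene MET, the next protein-coding gene after CAV1, was at −0.23, or −0.07 without knockdown-labelled replicate 1. MDFIC was at −0.16, or −0.02 without knockdown-labelled replicate 3. The differences of TFEC, ST7, WNT2, ASZ1, CFTR and CTTNBP2, all dim, were 0.07 to 0.22, and those of TFEC, ASZ1, CFTR and CTTNBP2 turned below 0 after quantile normalization. Leaving out 1 array moved TFEC, ST7, ASZ1, CFTR and CTTNBP2 by over 1.5 times, down to 0.04 for TFEC and ASZ1 without knockdown-labelled replicate 1, 0.08 and 0.01 for CFTR and CTTNBP2 without control replicate 2, and −0.07 for ST7 without knockdown-labelled replicate 3. WNT2 was the only one of the 10 with no overlap, higher by 0.22 (limma adjusted p = 0.565). Of all genes 7.17% were higher with no overlap, so 1 of 10 is near the background. The WNT2 difference was 0.08 after quantile normalization.

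**Figure D4:**
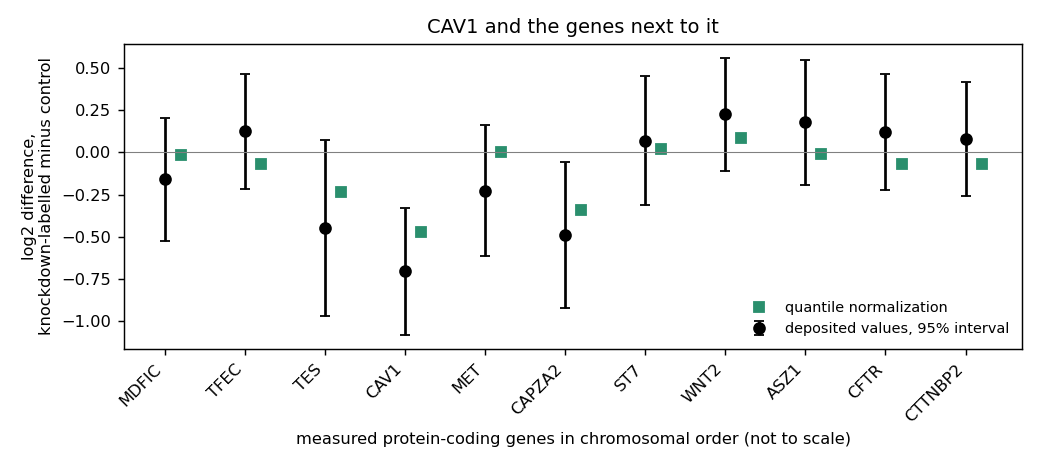
Log2 difference, knockdown-labelled minus control, of CAV1 and 10 protein-coding neighbours in chromosomal order, with limma's 95% interval (circles) and the value after quantile normalization (squares). CAV1 has the lowest value of the 11 genes, and the intervals of CAV1 and CAPZA2 lie below 0.

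Other genes of caveolae and membrane scaffolds gave no call. Of 14 listed, 13 were measured, 8 were below 0 and 5 above, with a median of −0.10 where 51.5% of all genes were below 0. The sign of that median depended on the scaling: it was −0.02 after quantile normalization and 0.01 after cyclic loess, and it was −0.01 without knockdown-labelled replicate 3. STOM, a stomatin that gathers in cholesterol-rich membrane, was at −0.35 (limma adjusted p = 0.419) and −0.13 after quantile normalization. Its signal of 7.99, 7.69 and 7.63 in the controls and 7.30, 7.42 and 7.54 in the knockdown-labelled arrays did not overlap. With no overlap 2 genes of this list were lower and 0 higher, where 9.82% and 7.17% of all genes were. These counts are near the background. CAVIN4, the muscle cavin, was at 0.52 (limma adjusted p = 0.357), from a dim probe set that read 2.09, 2.28 and 2.16 in the controls and 2.84, 2.24 and 3.01 in the knockdown-labelled arrays, with overlap. No member of this list was lower at an unadjusted p under 0.05 and 1, CAVIN4, was higher, where 8.38% of all genes were lower and 3.78% higher at that level.

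Among genes of caveolar cargo and signalling partners, 20 of 21 were measured and 0 passed the test in limma. An unadjusted p under 0.05 was reached by 2 lower genes and 1 higher gene, where 8.38% and 3.78% of all genes reached it, so these counts are near the background. The median was −0.11, but 0.01 after quantile normalization and 0.02 after cyclic loess, and −0.03 without knockdown-labelled replicate 1. PLAUR, the urokinase receptor, was at −0.51 (limma adjusted p = 0.289), with 6.32, 6.13 and 6.04 in the controls and 5.65, 5.66 and 5.64 in the knockdown-labelled arrays. These groups were separate, and the knockdown-labelled arrays lay within a narrow range. With no overlap 2 genes of this list were lower and 1 higher, near the shares of all genes, 9.82% and 7.17%. BMPR2, a receptor of bone morphogenetic proteins, was at −0.45 (limma adjusted p = 0.445), with overlap between the groups. Its knockdown-labelled replicate 1 read 4.36 against 4.89 and 5.24 in replicates 2 and 3. The BMPR2 difference was −0.21 without that array and −0.29 without control replicate 1.

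The clathrin coat forms the other main class of endocytic pits. All 24 listed clathrin coat and adaptor genes were measured, 19 were below 0, and the median was −0.30. Of all genes 51.5% were below 0, and of the brightest bin, which holds 15 of the 24, 85.3% were. The median was −0.13 after quantile normalization, −0.09 with cyclic loess and −0.13 without knockdown-labelled replicate 1. None passed the test in limma, and an unadjusted p under 0.05 was reached by 4 lower genes and 0 higher ones, where 8.38% and 3.78% of all genes reached it. With no overlap 4 were lower and 0 higher, where 9.82% and 7.17% of all genes were. HIP1, which links clathrin to actin, was at −0.57 (limma adjusted p = 0.305) with no overlap, and AAK1, a kinase of the AP-2 adaptor, at −0.52 (limma adjusted p = 0.456). The AAK1 value rested on knockdown-labelled replicate 1, which read 5.27 while replicates 2 and 3 read 6.25 and 6.64, and it was −0.13 without that array.

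YAP and TEAD are a coactivator and its DNA-binding partners, which drive CAV1 and other genes of stretched and spread cells. Whether they act on the CAV1 signal of these arrays was not tested. Of 24 listed genes of this pathway and its targets, all were measured and 20 were below 0. Of all genes 51.5% were below 0, and of the brightest bin, which holds 10 of the 24, 85.3% were. With no overlap 8 were lower, where 9.82% of all genes and 4 of the 24 clathrin genes were. The no-overlap share was not taken within bins of brightness, so the 8 cannot be set against genes of like brightness. Of the YAP and TEAD list 0 passed the test in limma. At an unadjusted p under 0.05, 4 were lower and 0 higher, where 8.38% and 3.78% of all genes were. The median was −0.20, −0.13 after quantile normalization and −0.12 without knockdown-labelled replicate 1. TGFB2, a growth factor, was at −0.82 (limma adjusted p = 0.192), with 6.74, 6.45 and 6.55 in the controls and 5.59, 5.68 and 6.01 in the knockdown-labelled arrays. ANKRD1, a nuclear ankyrin-repeat protein, was at −0.60 (limma adjusted p = 0.334), with 4.54, 3.94 and 4.10 against 3.13, 3.77 and 3.87, and it was −0.38 without knockdown-labelled replicate 1. Both genes were separate between the groups. TGFB2 passed the test with array weights alone among the alternatives tried (difference −0.79, limma adjusted p = 0.0237). Those weights were 5.03 for control replicate 3 and 0.41 to 1.22 for the other arrays, so that fit leans on 1 control array.

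**Figure D5:**
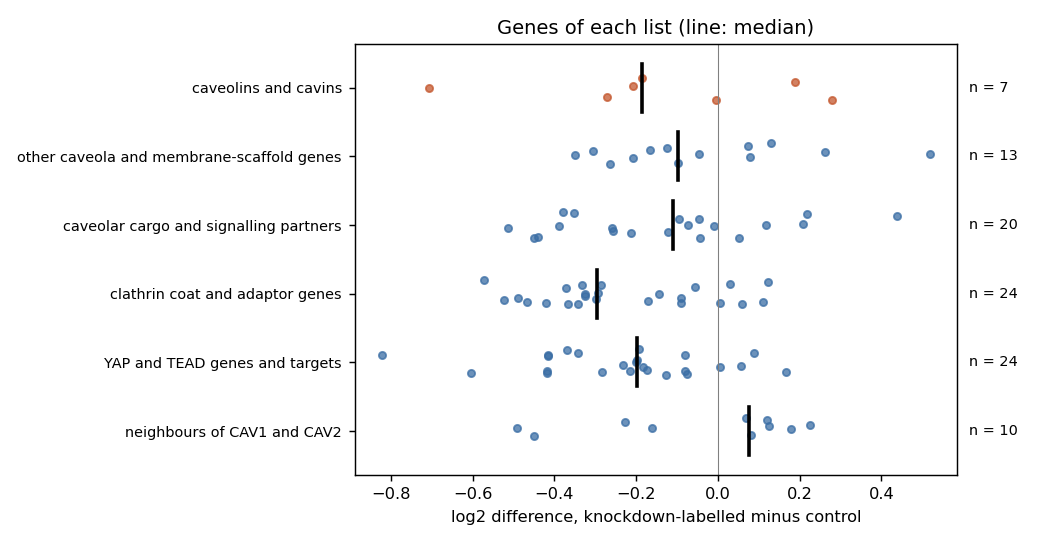
Log2 difference, knockdown-labelled minus control, of each measured gene (points) in the caveolin and cavin family and in 5 other lists, with the list's median as a line and vertical scatter only for display. The medians run from −0.30 for the clathrin genes to 0.08 for the neighbours of CAV1, and CAV1 is the outermost point of its own family.

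Most markers listed for A549 and epithelium were bright. That list was drawn up for this line, so it is no test of the cells' identity. Of 10 A549 and epithelial markers 9 were at or above the median gene in signal, among them KRT8, KRT18 and CDH1, and EPCAM was below it. Their summed log2 signal was 72.4 to 75.1 in the controls and 69.9 to 73.5 in the knockdown-labelled arrays. Log2 signals of this kind have no zero, so no marker could be read as absent. Caveolae are abundant in other cell types. At or above the median gene were 1 of 10 endothelial, 3 of 9 fibroblast and 1 of 7 adipocyte markers, so most of these were dim. Of alveolar type I markers 4 of 9 were at or above it and of muscle markers 5 of 10, near the share of genes in general. Endothelial markers summed to 28.6 to 30.3 in the controls and 30.4 to 31.9 in the knockdown-labelled arrays, with 9 of 10 above 0 in the difference. Fibroblast markers summed to 26.4 to 27.9 and 28.6 to 31.9, with 9 of 9 above 0. Endothelial and fibroblast sums were higher in the knockdown-labelled arrays. Adipocyte (21.0 to 22.6 and 21.5 to 22.9) and muscle markers (35.8 to 36.3 and 35.3 to 36.4) overlapped between the groups. Of all genes in the dimmest bin 18.3% were below 0, and in the second dimmest 36.1%. After quantile normalization the median difference of endothelial markers went from 0.13 to 0.01, and that of fibroblast markers from 0.34 to 0.27. Of 9 alveolar type I markers 3 were below 0 and 6 above, with a summed signal of 31.8 to 32.3 and 31.7 to 33.5. The type I markers with an unadjusted p under 0.05, named after their values were seen, were EMP2 at −0.64 with no overlap (limma adjusted p = 0.273), RTKN2 at 0.41 with no overlap (limma adjusted p = 0.357) and HOPX at 0.46 with overlap (limma adjusted p = 0.369). With no overlap 1 type I marker was lower and 1 higher, where 9.82% and 7.17% of all genes were. No marker in these lists passed the test in limma. An unadjusted p under 0.05 was reached by 2 lower epithelial markers, by 1 lower and 2 higher type I markers, and by 2 higher markers each of endothelium and fibroblasts, where 8.38% of all genes were lower and 3.78% higher at that level. The differences of dim genes were above 0 in general, and the part of other cell types in the values of the members was not tested.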

How the data were processed

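RNA of 6 A549 samples was read on Affymetrix arrays, 1 array each, and groups (3 control, 3 labelled H2AX knockdown) were taken from the sample titles. The authors deposited log2 signals of 33297 probe sets, which come from RMA according to the submitters' processing notes (no version is named there); the log2 scale was read from the values, 0.611 to 13.2. Array medians ran from 3.38 to 3.53 and SDs from 1.60 to 1.86, so the arrays did not share one distribution. Probe sets were named through the platform's annotation and Entrez numbers. Of the probe sets 19460 had 1 gene, 1754 several and 12083 none.

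Genes (18417, no filter) were tested with limma 3.58.1 (R 4.3.3, lmFit and eBayes, 2-sided, no covariate), Benjamini-Hochberg adjusted over all genes, threshold 0.05. Values after ± are SDs over 3 arrays. Per the series' design, each group's samples were independent experiments. With 3 arrays a group, their number limits the precision. The procedure was tested on simulated data with independent noise and no shift with brightness. That test therefore does not cover the shift seen in these arrays.

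The members and lists were chosen with earlier results of these data known. Named genes were the members, H2AX, the 5 most like CAV1, all neighbours of CAV1, and the 2 largest absolute differences of each other list where none passed. CAVIN1 and CAVIN3 had no promoter entry. Alternatives were a replicate block, a filter at the median signal, 3 normalizations, 2 treatments of probe sets, an intensity trend, array weights and the omission of each array in turn. Same-numbered arrays did not deviate together (r of −0.31, −0.03 and 0.07), so the numbers were not taken as pairs. Figures were drawn with matplotlib 3.10.9.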

Additional observations from a re-analysis of the deposited data

How the results depend on the processing

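Fits of probe set 8135587 were added after the data had been seen. In all 15 alternatives 0 members were called, in limma, with 1 or 2 of them at an unadjusted p under 0.05. CAV1 stayed below 0 in each, from −0.80 to −0.43 (limma adjusted p 0.0822 to 0.928), PACSIN2 from −0.49 to −0.03, and CAV3 and CAVIN3 stayed above 0, though CAV3 was left out by the filter at the median signal. CAVIN1 turned to 0.029 and EHD2 to 0.027 after quantile normalization, and to 0.048 and 0.068 after cyclic loess. CAVIN2, which lay at 0, turned above it without control replicate 1 or 3 or knockdown-labelled replicate 1 or 3 (with 1 array left out the CAVIN2 values ran from −0.084 to 0.066). Of the neighbours, ASZ1, CFTR, CTTNBP2 and TFEC turned to −0.0078, −0.067, −0.067 and −0.067 after quantile normalization and to −0.019, −0.061, −0.050 and −0.074 after cyclic loess, MET to 0.00040 and 0.043, and MDFIC to 0.0088 after cyclic loess. ST7 turned below 0 without knockdown-labelled replicate 3 (range with 1 array left out −0.070 to 0.20). For CAVIN1, EHD2 and the neighbours both normalizations remove a shift with brightness by construction. Probe set 8135587 stayed at −1.01 to −0.60.

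Over all genes, 5 were called lower and 1 higher. Quantile normalization and cyclic loess gave 0 and 0 (1495 and 1511 genes at an unadjusted p under 0.05 in limma), array weights 155 and 36, the filter at the median signal 14 and 2, the mean of all probe sets 3 and 0, and array medians subtracted or every probe set tested 0 higher. The array weights leaned on control replicate 3, at 5.03 against 0.41 to 1.22 for the other arrays. The replicate block gave 3 lower and 0 higher, and CAV1 stayed at −0.71 under the block (limma adjusted p = 0.401). With 1 array left out the counts were 0 to 8 lower and 0 to 1 higher. Causes were not tested. The deposited signals give no background level, so what dim probe sets hide is unknown.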
